A study of Mus musculus with 30 samples.

Results

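The comparison described here is the RNA response of primary mouse tail tendon fibroblasts to blebbistatin, measured against the solvent DMSO. Its members are the genes whose normalised count averaged at least 10 over the 6 libraries compared. These were 14882 of the 35973 genes in the table, and they held at least 99.92% of the reads of each library. A further 9538 genes were read below that mean, and 11553 were never read. The genes just inside that limit were BC048609, Gm12506 and LOC108168398, with means of 10.003, 10.008 and 10.011, and those just outside it were Hsf3, Car2 and Gm38968, with means of 9.9924, 9.9935 and 9.9967.

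All groups used here were tail tendon fibroblasts of wildtype mice, taken into culture as primary cells, grown with 10% serum and treated in medium with 0.1% serum. One group of 3 libraries received DMSO, one of 3 received blebbistatin at 10 µM, and one of 3 received Y27632 at 30 µM, an inhibitor of the kinases Rock1 and Rock2 that serves below as another way of lowering contractility. Age, sex and the length of treatment are not in the labels, and nothing there says whether the 3 replicates came from separate animals or cultures, so p-values measure only the spread between these libraries. The series asks how Yap and Taz link mechanical state to the upkeep of the extracellular matrix, and this comparison asks what the transcriptome does when myosin is blocked.

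Non-muscle myosin II pulls on actin filaments and gives a fibroblast its tension. Blebbistatin blocks the ATPase of the myosin heads directly, whereas Y27632 inhibits the kinases Rock1 and Rock2, which switch myosin on through its light chain. Tension in the actin network is read by transcription factors that include Srf, which is controlled through actin monomers, and Yap and Taz, which act with Tead factors. Tendon fibroblasts build and remodel a collagen matrix, so contractility, adhesion, secretion and matrix turnover meet in this cell.

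Total reads in genes were 27380884, 24690594 and 23375386 in the DMSO libraries and 24601387, 31326871 and 27680972 in the blebbistatin libraries. Markers of tendon fibroblasts were read in every library. Tnmd, a tendon membrane protein, read 843, 993 and 874 in the DMSO libraries and 753, 841 and 706 with blebbistatin in normalised counts, and Scx, a tendon transcription factor, read 62.6, 72.8 and 56.3 in the DMSO libraries and 55.1, 83.9 and 55.1 with blebbistatin. Muscle markers were absent or nearly so (Myod1 and Myf5 at 0 in all 6 libraries). Endothelial markers were uneven. Cldn5 was at 0 throughout, Tie1 and Emcn were at or near 0, and Pecam1 and Kdr were low. Cdh5 read 69.5, 72.8 and 58.6 in the DMSO libraries, and Tek read 3112, 3135 and 3084. Markers of macrophages were present, and their values stand beside the lysosomal genes below.

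Blebbistatin replicate 2 stood apart from the other libraries. The count asked that the other 2 replicates of a group lay within 0.3 of each other on the log2 scale. It covered 10829 to 11054 of the 14882 genes, depending on the library. In blebbistatin replicate 2, 92 such genes lay more than 0.5 above the mean of the other 2 replicates, against 2 to 5 genes for each of the other 5 libraries. Of these 92, 16 were interferon response genes. Genes whose other 2 replicates differed more are left out, among them Ifit1, at 4805 against 446 and 316. Results that rest on this library are given with and without it.

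Myosin inhibition changed expression widely but mostly by small amounts. Of 14882 genes, 26.1% were higher with blebbistatin and 26.9% lower (3885 and 4009 genes, limma on log2(normalised count + 1), Benjamini-Hochberg adjusted p under 0.05), so 53.0% of all genes passed. A gene is said below to have risen or fallen only where it passed this test, and a log2 change is blebbistatin minus DMSO. The median change of all genes was 0.002, and the median absolute change of the called genes was 0.37. Past 0.5 were 1607 higher and 1268 lower genes, past 1 were 541 and 437, and past 2 were 89 and 66, so 6.57% of all genes were called with a change of at least 1. The libraries of the 2 groups did not overlap at 30.0% of genes on the higher side and 30.2% on the lower side. Without blebbistatin replicate 2, 24.0% were higher and 25.7% lower, 49.7% in all.

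How readily a gene was called depended on its level. From a mean of 10 to 50 normalised counts, 26.2% of genes were called, with a median standard error of 0.283 and a median absolute change among the called of 1.06. From 1000 to 5000, 66.3% were called, with a median standard error of 0.042 and a median absolute change of 0.27. At 5000 and above 74.0% were called. The share lower grew with level, at 9.69%, 38.1% and 44.5% in these 3 ranges, and the share higher was 16.5%, 28.2% and 29.5%. Large changes among scarce genes and small changes among abundant ones are therefore both present in the counts that follow.

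**Figure D1:**
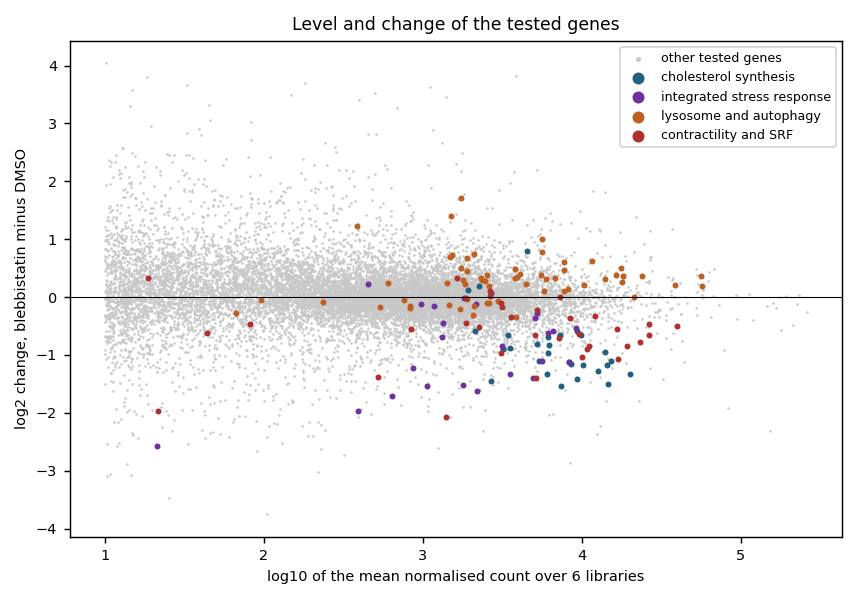
Level of each tested gene, as the log10 of its mean normalised count over the 6 libraries (x axis), against its log2 change with blebbistatin (y axis), with 4 gene lists coloured. Most genes lie close to 0, while the genes of cholesterol synthesis and of the contractile system lie mostly below 0 at high levels and the lysosomal genes mostly above it.

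To describe programs, 43 gene lists were used, which hold 1347 tested genes, 836 of them called. For each list the counts of called members are to be read against 26.1% higher and 26.9% lower for all genes, and the list median against 0.002. For lists of abundant genes the 26.9% is too low a measure, since 38.1% of genes at means of 1000 to 5000 and 44.5% of those above were lower. Among the lists with 20 or more tested genes, the lowest medians were those of cholesterol synthesis at -0.96, the integrated stress response at -0.68, contractility and Srf targets at -0.55, Yap and Taz targets at -0.50 and fatty acid synthesis at -0.49. Among the same lists the highest medians were those of the interferon response at 0.71 (0.24 without blebbistatin replicate 2), the Nrf2 response at 0.29, lysosome and autophagy at 0.29 and the genes induced by ERK signalling at 0.25.

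**Figure D2:**
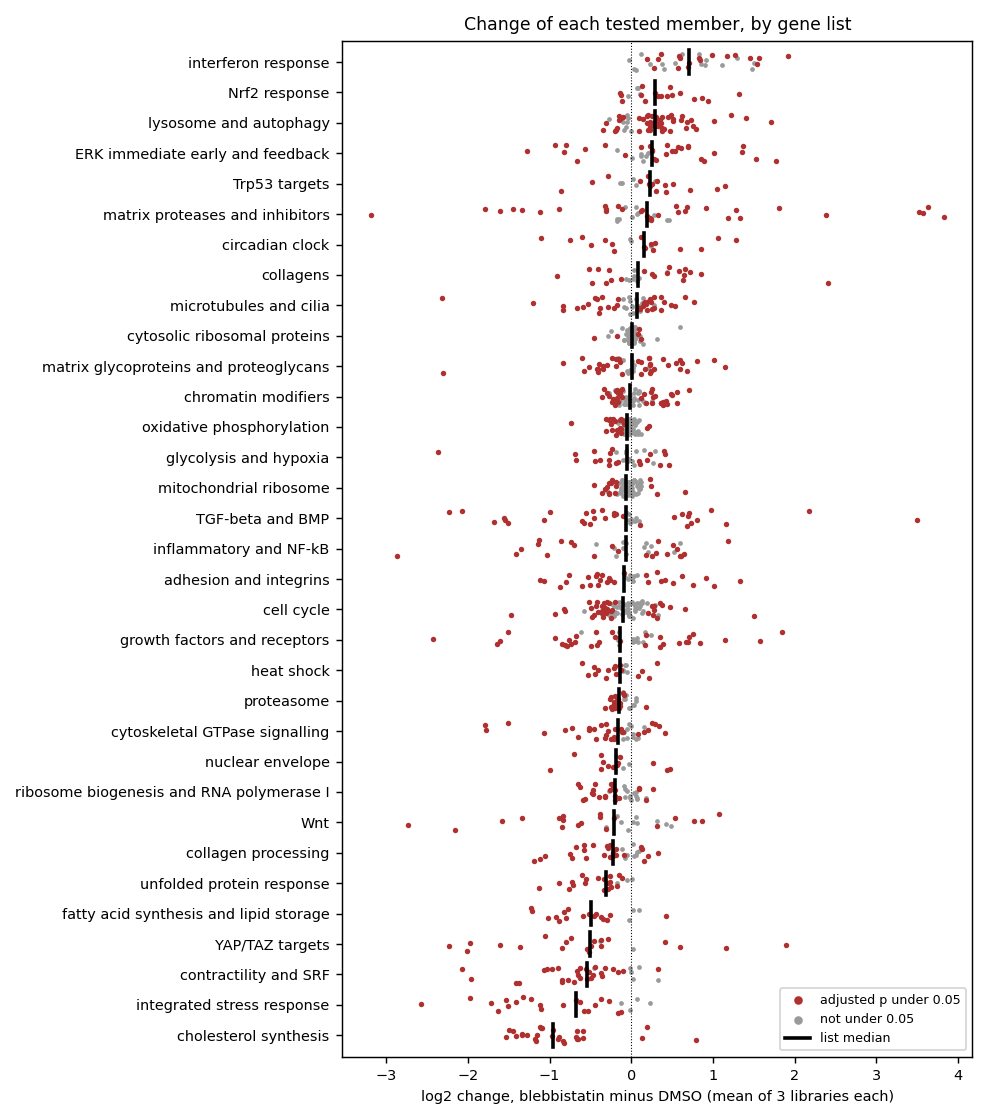
Each dot is 1 tested gene, placed by its log2 change with blebbistatin (x axis) in the row of its list, coloured by whether its limma adjusted p was under 0.05, with a black bar at the list median. Cholesterol synthesis, the integrated stress response and contractility lie mainly to the left of 0, lysosome and autophagy mainly to the right, and cytosolic ribosomal proteins close to 0.

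The machinery that blebbistatin acts on was itself expressed at a lower level. Of 35 tested genes of contractility and Srf control, 28 fell and 1 rose, or 2 without DMSO replicate 1 (80.0% lower against 26.9% of all genes), and together they went from 1.295% ± 0.0068 to 0.8945% ± 0.0072 of reads (SD, n = 3). All 12 crosslinkers and linkers of actin fell, as did 5 of 7 chains of myosin II, 3 of 4 actins and 6 of 9 tropomyosins, calponins, transgelins and the related Cald1. Tpm1, a tropomyosin that stabilises actin filaments, read 22854, 22779 and 23117 in the DMSO libraries and 10840.2, 11358 and 10623 with blebbistatin. Acta2, the smooth muscle actin that marks contractile fibroblasts, read 4048, 4009.9 and 4322 in the DMSO libraries and 2043, 1935 and 2349 with blebbistatin. Myl9, a regulatory light chain of myosin II, read 735, 748 and 769.7 in the DMSO libraries and 304, 269.7 and 294 with blebbistatin. In each of these genes every blebbistatin library lay below every DMSO library. In a bulk sample, fewer cells of a type and less RNA per cell cannot be told apart.

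The log2 changes were -1.07 for Tpm1 (standard error 0.032, limma adjusted p 7.83e-11), -0.97 for Acta2 and -1.37 for Myl9. Fhl2, a LIM protein that binds actin and Srf, had the lowest change of the list at -2.07, reading 2213, 2252 and 2342 in the DMSO libraries and 526, 576 and 515 with blebbistatin. The calponin Cnn2 changed by -1.41, vinculin (Vcl), which ties adhesions to actin, by -1.03, the crosslinker Actn1 by -0.90 and the adhesion protein Zyx by -0.85. The target of the drug split by isoform. Myh9, the heavy chain of myosin IIA, fell by 0.47 on the log2 scale, while Myh10, that of myosin IIB, was at 0.10 and did not pass, except at 0.13 without DMSO replicate 1. Srf itself fell by 0.56 and its coactivator Mkl1 by 0.51, whereas the second coactivator Mkl2 rose by 0.32.

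Promoters of this list are shown for the CArG box, the site that Srf binds. Of 31 list genes with a promoter in the table, 8 had a CArG box on either strand in the 250 bases before the gene start (25.8%), against 1.40% of 11492 tested genes with a promoter, and all 8 fell. Among called list members with a mean of at least 100, the 2 with the largest change, Fhl2 and Cnn2, hold it. It is in capitals here, in the RefSeq sequence of GRCm38.p6 written 5′ to 3′ along the gene (Fhl2 at chr1:43196762-43197011, minus strand, and Cnn2 at chr10:79988350-79988599, plus strand). The box begins 96 bases before the start of Fhl2 and 56 before that of Cnn2.
Fhl2: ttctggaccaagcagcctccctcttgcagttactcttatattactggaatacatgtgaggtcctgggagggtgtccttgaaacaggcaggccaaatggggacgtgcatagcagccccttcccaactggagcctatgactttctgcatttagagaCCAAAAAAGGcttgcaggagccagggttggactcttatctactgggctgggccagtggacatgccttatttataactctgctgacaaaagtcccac
Cnn2: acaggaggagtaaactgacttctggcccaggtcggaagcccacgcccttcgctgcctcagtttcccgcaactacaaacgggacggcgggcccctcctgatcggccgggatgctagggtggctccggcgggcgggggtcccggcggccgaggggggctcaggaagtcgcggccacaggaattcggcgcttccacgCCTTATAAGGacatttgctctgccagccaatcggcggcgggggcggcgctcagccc
A match in the letters is a description and not evidence of binding.

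Upstream of myosin, signalling by small GTPases of the actin cytoskeleton also shifted down, with 24 of 42 genes lower and 7 higher and a median of -0.17. Rock2, a kinase that activates myosin, had the lowest value and read 21862, 22721 and 21906 in the DMSO libraries and 6252, 6267 and 6648 with blebbistatin, a change of -1.79 (standard error 0.033, limma adjusted p 2.61e-12) with no overlap between the groups. Its partner kinase Rock1 was at -0.10, and that small fall was not called under TMM scaling (adjusted p 0.0516). The atypical GTPases Rnd1 and Rnd3, which oppose Rhoa, fell by 1.77 and 1.51, and the GTPase-activating protein Arhgap29 by 1.07. All 9 GTPases of the list passed, 7 lower and 2 higher (1 higher with any library but blebbistatin replicate 2 left out), with Rhob at -0.81, Rhoa at -0.31 and Rhoc at 0.21. Without blebbistatin replicate 3, 4 genes of the list were called higher instead of 7.

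Of 22 tested genes of a signature of Yap and Taz targets, 16 fell and 4 rose, with a median of -0.50. Amotl2, an angiomotin that restrains Yap, read 21419.7, 21635 and 21423 in the DMSO libraries and 4321, 4822 and 4652 with blebbistatin. Cyr61, a secreted matricellular protein, read 9898, 10690.5 and 10942 in the DMSO libraries and 2346, 2666 and 2818 with blebbistatin. The groups were far apart in both, at log2 changes of -2.23 and -2.01. Nuak2, Ctgf, Ankrd1 and Lats2 fell by 1.98, 1.60, 1.36 and 0.80. The 4 genes that moved up against the rest were Gadd45a, a stress-inducible growth arrest gene, Tgfb2, a TGF-beta ligand, the ectoenzyme Nt5e and the exchange factor Dock5. Gadd45a read 421, 519.6 and 497 in the DMSO libraries and 1784, 1655 and 1884 with blebbistatin, with all blebbistatin libraries above all DMSO libraries, a log2 change of 1.89.

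Promoters of this list are shown for the Tead motif GGAATG, searched on both strands and so also read as CATTCC. It was present in 6 of 15 promoters (40.0%) against 13.0% of all, and all 6 of these genes fell. The motif was also in 32.3% of the promoters of contractility genes, in 18.2% of those of all genes that fell by at least 1 and in 16.2% of those of all genes that rose by at least 1. The capitals mark it in Amotl2 (chr9:102717554-102717803, plus strand) and in Cyr61, which the table lists as Ccn1 (chr3:145649986-145650235, minus strand), 65 and 103 bases before the start.
Amotl2: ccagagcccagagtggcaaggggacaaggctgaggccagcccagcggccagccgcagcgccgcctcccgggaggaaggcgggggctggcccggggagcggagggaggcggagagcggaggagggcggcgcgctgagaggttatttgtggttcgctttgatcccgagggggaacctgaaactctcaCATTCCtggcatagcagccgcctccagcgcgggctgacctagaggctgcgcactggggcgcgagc
Cyr61: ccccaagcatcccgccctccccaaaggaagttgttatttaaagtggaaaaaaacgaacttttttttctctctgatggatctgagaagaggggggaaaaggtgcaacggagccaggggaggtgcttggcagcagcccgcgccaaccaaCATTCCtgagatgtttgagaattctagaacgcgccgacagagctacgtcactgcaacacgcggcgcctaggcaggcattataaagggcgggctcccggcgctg
In the authors' deposited table of ATAC sites changed by blebbistatin, 953 of 970 sites were lower, and 8 of the 22 target genes (36.4%) had a lower site annotated to them against 3.50% of all tested genes. Distances from the gene start varied widely, such as -448064 bases for a site of Crim1, -118981 for one of Ctgf and -121 for one of Ankrd1. Whether a site acts on the gene it is annotated to was not tested. By the same authors' deposited table, 17.4% of the genes that fell by at least 1 had a lower site, against 2.96% of those that rose by at least 1. Contractility genes had one in 7 of 35 cases. None of the 28 genes of cholesterol synthesis was annotated to a lower site in the authors' deposited table, which lists only sites past its threshold. At the 3.50% of all tested genes, few would be found in a list of that size, so their absence is close to that share.

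Adhesion genes divided by role. Of 17 adaptors and kinases of focal adhesions 13 fell and 1 rose (median -0.38), and of 19 integrins 10 rose and 5 fell (median 0.18). Among the adaptors, Nedd9 fell by 1.11, Tns3 by 0.76, Lims1 by 0.50, Fermt2 by 0.43 and Ilk by 0.38. Among the integrins, which bind matrix outside the cell, Itga8 changed by 1.34, Itgb3 by 0.91 and Itga10 by 0.76, and the collagen receptor subunit Itga1 by -0.88. Itgb3 read 1776, 1719.8 and 1694 in the DMSO libraries and 3414, 3244 and 3100 with blebbistatin, with no overlap. Itgb2, a subunit of leukocyte integrins, also rose, by 0.62. Without blebbistatin replicate 2, 6 integrins were called higher instead of 10 and 5 lower, and 7 of the 36 adhesion genes higher instead of 11.

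Matrix genes divided by role as well. Of 28 collagens 12 rose and 8 fell, with a median of 0.08. Among the 10 fibrillar collagens 5 fell and 2 rose, and Col1a1, the main collagen chain of tendon, read 294339, 290408 and 269097 in the DMSO libraries and 233537, 256773 and 226451 with blebbistatin, a change of -0.25. Col3a1 stayed at 0.03 and did not pass, Col5a2 fell by 0.48 and Col11a1 by 0.52. Network-forming and other collagens went the other way, with 8 of 13 higher. Col4a1, a basement membrane chain, read 15123, 14238 and 13182 in the DMSO libraries and 23115, 24016 and 22578 with blebbistatin and changed by 0.71. Col6a3 rose by 0.64, Col18a1 by 0.64 and Col27a1, a fibrillar chain, by 0.85, whereas Col8a1 fell by 0.90.

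The enzymes and carriers that turn procollagen into fibrils were mostly lower, 21 of 34 against 5 higher, with a median of -0.22, or 3 higher without blebbistatin replicate 2. Of 12 prolyl and lysyl hydroxylases 8 fell, as did 8 of 10 chaperones and secretion factors. Sec23a and Sec24d, coat proteins of the vesicles that carry collagen out of the endoplasmic reticulum, fell by 0.75 and 0.56, and Creb3l1, a transcription factor of secretory cells, by 0.73. Lox, which crosslinks collagen, read 202878, 221592 and 219414 in the DMSO libraries and 140340.3, 149275 and 143297 with blebbistatin and changed by -0.57. Its relative Loxl4 fell by 1.05, the propeptide proteases Tll1 and Adamts3 by 1.19 and 1.11, and the hydroxylase Plod1 rose by 0.33. Among 51 glycoproteins and proteoglycans 21 rose and 18 fell. Thbs1, a matricellular protein that activates TGF-beta, had the lowest change at -2.31, and Tnxb, a tenascin that spaces collagen fibrils, the highest at 1.15, reading 7488, 7266 and 6156 in the DMSO libraries and 15387, 16375 and 14521 with blebbistatin.

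Many enzymes of matrix breakdown rose. Of 17 matrix metalloproteinases 11 rose and the other 6 did not pass, with a median of 0.55. Of those 6, 2 were called lower without blebbistatin replicate 2 and 1 without DMSO replicate 3. The collagenase Mmp13 changed by 3.83, the stromelysins Mmp10 and Mmp3 by 3.63 and 1.81, the gelatinase Mmp2 by 0.92 and Mmp11 by 1.33. Mmp14, which sits in the membrane and activates Mmp2, read 22672, 22747 and 21900.2 in the DMSO libraries and 50701, 52132 and 49969.6 with blebbistatin. Cathepsin K (Ctsk), a lysosomal collagenase, read 4966, 4949 and 4997 in the DMSO libraries and 12275, 11922 and 12163 with blebbistatin, a change of 1.29. In both, all 3 blebbistatin libraries lay above all 3 DMSO libraries. The Adamts protease family split, with 5 of 15 genes higher and 7 lower. Adamts15 changed by 3.52, but Adamts5 read 34852, 36966 and 34422 in the DMSO libraries and 10239, 10108 and 10397 with blebbistatin, a change of -1.79, and Adamts1 fell by 1.60. Among inhibitors, Timp3 fell by 1.34 and Timp1 by 0.31, while Timp2 rose by 0.24.

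**Figure D3:**
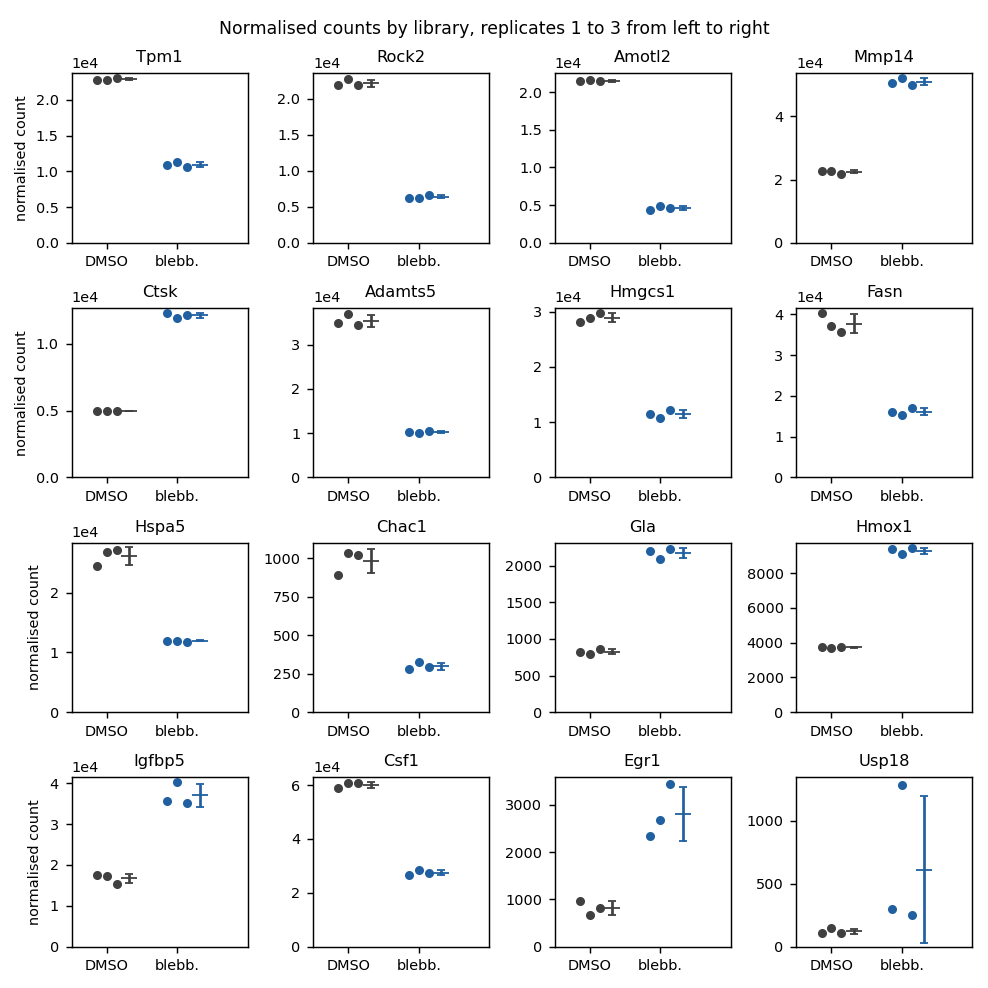
Normalised counts (y axis, from 0) of 16 genes in the 3 DMSO and 3 blebbistatin libraries, with the mean and SD (n = 3) to the right of the dots. The groups do not overlap in any of the 16, and in Usp18 blebbistatin replicate 2 lies far above the other two replicates.

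Sterol synthesis fell from end to end. All 20 tested enzymes of the pathway from acetyl-CoA to cholesterol fell, with a median of -1.03, and the 28 genes of the list went from 1.086% ± 0.020 to 0.5694% ± 0.025 of reads (SD, n = 3). This pathway is switched on by Srebf2 when membranes run low in sterol. Hmgcs1, an early enzyme of the pathway, read 28197, 28827 and 29715 in the DMSO libraries and 11418, 10831 and 12269 with blebbistatin. Insig1, a brake on Srebf2 that is also its target, read 17888, 17542 and 18146 in the DMSO libraries and 7367, 7078 and 7613 with blebbistatin. The groups did not overlap in either gene, at changes of -1.33 (standard error 0.042, limma adjusted p 1.35e-10) and -1.28.

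Enzymes fell at every stage that the list covers. Early, Mvk changed by -0.88 and Idi1 by -1.45. At the middle steps Fdps changed by -0.95, Fdft1 by -0.68 and Sqle by -1.12. Late, Lss changed by -1.18 and Msmo1 by -1.41. Srebf2 fell by 0.59. The 3 genes that rose were Npc1, which exports cholesterol from lysosomes, and the Srebf2 regulators Scap and Insig2. The rise of Insig2, of 0.13, was not called without DMSO replicate 1, blebbistatin replicate 1 or blebbistatin replicate 3. Npc1 read 3351, 3316 and 3290.1 in the DMSO libraries and 5797, 5515 and 5957 with blebbistatin, again without overlap, a change of 0.79.

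The promoter of Idi1, the list gene with the largest change that has a promoter in the table, is shown for the CCAAT box, the site of NF-Y, which acts beside Srebf2 at sterol genes. CCAAT, on either strand and so also read as ATTGG, was in 17 of 19 promoters of the list (89.5%) against 40.1% of all, and of these 17 genes 16 fell and 1 rose. Idi1 (chr13:8885356-8885605, plus strand) has 2 matches, 45 and 14 bases before the start, in capitals.
Idi1: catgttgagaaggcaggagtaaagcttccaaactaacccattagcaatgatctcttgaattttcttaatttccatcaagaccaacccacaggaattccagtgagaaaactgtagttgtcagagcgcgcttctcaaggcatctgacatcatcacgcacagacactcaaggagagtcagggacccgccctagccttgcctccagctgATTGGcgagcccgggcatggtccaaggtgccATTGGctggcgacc

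Fatty acid synthesis, run by the related factor Srebf1, followed. Of 20 genes 16 fell and 1 rose, with a median of -0.49, and the list went from 1.273% ± 0.019 to 0.8276% ± 0.042 of reads (SD, n = 3). Fasn, the fatty acid synthase, read 40353, 37242 and 35631 in the DMSO libraries and 16058, 15415 and 16977 with blebbistatin, and the elongase Elovl6 read 7136, 7169 and 6895 in the DMSO libraries and 3015, 2940.1 and 3190 with blebbistatin. Both fell without overlap, by 1.22 and 1.21. The desaturases Scd2 and Scd1 fell by 0.92 and 0.34, and Acly, which makes cytosolic acetyl-CoA, by 0.89. The gene that rose was Plin2, a coat protein of lipid droplets, at 0.42. Lipid uptake and adipocyte genes moved up at the same time. Lpl, lipoprotein lipase, read 6111, 6298 and 6308 in the DMSO libraries and 13019.5, 12200.3 and 12925 with blebbistatin, and the transcription factor Cebpa read 504, 464 and 519 in the DMSO libraries and 972, 1114 and 1043 with blebbistatin. Of 4 tested adipocyte markers 3 rose, and the summed level of the 8 listed was 6891 to 7142 in DMSO and 13615 to 14304 with blebbistatin. Most of that sum is Lpl, and the defining adipocyte genes Adipoq, Plin1 and Cidec were at or near 0, at most 1.84 normalised counts in any library.

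Lysosomal genes rose together. Of 26 lysosomal enzymes and membrane proteins with their regulators 23 rose and 1 fell (median 0.35), a fall lost with any library but blebbistatin replicate 1 left out, and of 20 subunits of the V-ATPase, the proton pump that acidifies lysosomes, 14 rose and 2 fell (median 0.27), or 1 fell without DMSO replicate 1, DMSO replicate 2 or blebbistatin replicate 1. The list as a whole went from 1.474% ± 0.016 to 1.923% ± 0.011 of reads (SD, n = 3). Its summed normalised count was 396342 to 403218 in DMSO and 491642 to 492251 with blebbistatin. Shares of reads are on another scale than normalised counts and log2 changes. Cytosolic ribosomal proteins, with a median change of 0.01, went from 3.194% to 3.427% of reads. Gla, alpha-galactosidase A, read 823, 792 and 858 in the DMSO libraries and 2197, 2097 and 2231 with blebbistatin. Mitf, a transcription factor of the family that controls lysosome genes, read 803, 821 and 832 in the DMSO libraries and 2686, 2580 and 2754 with blebbistatin. Atp6v1b2, a pump subunit, read 3706, 3716 and 3726 in the DMSO libraries and 7686, 7354 and 7404 with blebbistatin. All 3 were higher in every blebbistatin library, at changes of 1.40 (standard error 0.045, limma adjusted p 1.54e-10), 1.71 and 1.01.

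The relatives of Mitf went differently, with Tfe3 at -0.10 and Tfeb at -0.09. Tfeb did not pass, and Tfe3 did not under DESeq2 (adjusted p 0.0994). Most enzymes moved by modest amounts, such as 0.61 for Hexa, 0.62 for Ctsa, 0.38 for Gaa and 0.36 for the membrane protein Lamp2. The calcium channel Mcoln1 rose by 0.75 and the sialidase Neu1 by 0.73. Autophagy genes were mixed, 7 of 15 higher and 6 lower. Gabarapl1, Atg7 and the cargo receptor Sqstm1 rose by 0.79, 0.69 and 0.51, while Wipi1, Atg16l1, Map1lc3a and Becn1 fell by 0.34, 0.18, 0.20 and 0.15.

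Macrophage markers moved in the same direction. Of 6 tested markers 5 rose, and the summed level of the 8 listed was 5921 to 6495 in DMSO and 8331 to 9368 with blebbistatin. Lyz2, a lysozyme, read 4737, 4325 and 4519 in the DMSO libraries and 6238, 6928 and 6337 with blebbistatin, and Cd68 read 577, 519.6 and 562 in the DMSO libraries and 796, 890.4 and 795 with blebbistatin. Aif1 and Fcgr1 were at or near 0, at most 5.52 and 3.31 normalised counts. In the edgeR comparison with Y27632 described below, the 6 markers differed by -0.09 to 0.11 on the log2 scale. The part of macrophages in the lysosomal, integrin and protease results was not tested.

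The promoter of Gla is shown for the palindrome TCACGTGA, a form of the element that factors of the Mitf family bind. It was in 5 of 46 list promoters (10.9%) against 1.70% of all, and all 5 genes rose (Gla, Mcoln1, Ctsa, Atp6v1a and Ctsd). Gla (chrX:134601006-134601255, minus strand) has 2 matches, 228 and 195 bases before the start, in capitals.
Gla: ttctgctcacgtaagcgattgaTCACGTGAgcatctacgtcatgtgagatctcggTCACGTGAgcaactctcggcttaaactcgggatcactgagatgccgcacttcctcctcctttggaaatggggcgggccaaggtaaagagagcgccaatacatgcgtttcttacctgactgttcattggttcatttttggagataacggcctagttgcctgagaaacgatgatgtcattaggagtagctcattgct

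Stress programs of protein synthesis were lower. In the integrated stress response, in which Atf4 induces amino acid synthesis and import, 21 of 25 genes fell and the other 4 did not pass, with a median of -0.68. Atf4 itself read 10876, 11303 and 11870.2 in the DMSO libraries and 5413, 5213 and 5027 with blebbistatin. Chac1, a glutathione-degrading enzyme that Atf4 induces strongly, read 889.6, 1034 and 1024 in the DMSO libraries and 282, 325 and 291 with blebbistatin. Cth, which makes cysteine, read 551, 687 and 632 in the DMSO libraries and 170.3, 148 and 155 with blebbistatin. No blebbistatin library reached the DMSO range in these genes, and the changes were -1.12 (standard error 0.039, limma adjusted p 2.98e-10), -1.71 and -1.97.

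Within that list, enzymes of serine and one-carbon metabolism fell, with Mthfd2 at -1.51, Psph at -1.22, Psat1 at -1.11 and Shmt2 at -0.84. The amino acid carriers Slc7a1 and Slc7a5 were at -1.63 and -1.41, and asparagine synthetase, Asns, at -1.33. The transcription factors Atf5 and Cebpg fell by 0.53 and 0.68. The promoter of Chac1 is shown for the composite element TTGCATCA of Atf4 and its partners, which was in 5 of 22 list promoters (22.7%) against 0.661% of all, and 3 of these 5 genes fell while the other two did not pass. In Chac1 (chr2:119350992-119351241, plus strand) it begins 193 bases before the start, in capitals.
Chac1: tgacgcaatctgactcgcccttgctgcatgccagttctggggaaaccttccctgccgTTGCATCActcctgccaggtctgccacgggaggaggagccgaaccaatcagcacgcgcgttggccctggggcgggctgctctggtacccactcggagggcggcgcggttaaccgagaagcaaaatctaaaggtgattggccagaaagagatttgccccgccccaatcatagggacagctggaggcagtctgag

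The unfolded protein response, which adjusts folding capacity in the endoplasmic reticulum, moved the same way, with 19 of 22 genes lower and a median of -0.31. Its chaperone Hspa5 read 24440, 26733 and 27181 in the DMSO libraries and 11968, 11939 and 11812 with blebbistatin, a change of -1.13 without overlap. Manf fell by 0.88, Xbp1 by 0.72 and Hyou1 by 0.76, and the sensor Ern1 was at -0.05 and did not pass. Of 21 cytosolic heat shock genes 12 fell and 4 rose, with Hsph1 at -0.60 and Dnajb4 at 0.32. Of 33 proteasome subunits 21 fell and 1 rose, but the median was -0.15 and the lowest change, that of Psmc4, was -0.32.

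Antioxidant genes of the Nrf2 response rose in 14 of 21 cases and fell in 3, with a median of 0.29. Hmox1, heme oxygenase, read 3768, 3678 and 3744 in the DMSO libraries and 9366, 9085 and 9428 with blebbistatin, a change of 1.32 without overlap. The glutathione genes Gsta4, Gclc and Mgst1 rose by 0.93, 0.87 and 0.77, and the ferritin chains Fth1 and Ftl1 by 0.44 and 0.48. The 3 that fell were the sensor Keap1 and the pentose phosphate enzymes G6pdx and Taldo1, by 0.11 to 0.14. Only 1 of the 3 was called without DMSO replicate 1 or without blebbistatin replicate 1. Of 22 p53 targets 14 rose and 3 fell, with a median of 0.23. Ddit4l and Eda2r changed by 1.04 and 0.72, Cdkn1a, the cell cycle inhibitor, by 0.21, and Plk2 by -0.86.

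Programs of growth and energy metabolism were uneven. Cytosolic ribosomal proteins had a median of 0.01, with 76 of 81 not called. Oxidative phosphorylation genes had a median of -0.05, with 21 of 77 lower, and the lowest was cytochrome c (Cycs) at -0.73. Mitochondrial ribosome subunits had a median of -0.06. Ribosome assembly factors were lower in 21 of 39 cases, with a median of -0.20, led by the nucleolar proteins Nop56 and Nop58 at -0.65 and -0.62. Of 34 glycolysis and hypoxia genes 12 fell and 8 rose, with a median of -0.06. Among them Adm, the vasodilator adrenomedullin, read 20124, 20916 and 21437 in the DMSO libraries and 3939.9, 4067 and 4081 with blebbistatin and changed by -2.37.

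Of 85 cell cycle genes 27 fell (31.8% against 26.9% of all genes) and 11 rose (12.9% against 26.1%), and the median was -0.11. Of 19 G1 regulators 10 fell and 4 rose, of 38 mitotic genes 14 fell and 1 rose, and of 28 replication genes 3 fell and 6 rose. Cyclin D1, Ccnd1, read 5509, 5517 and 5744 in the DMSO libraries and 3274, 3219.7 and 3059 with blebbistatin and changed by -0.81. E2f7, a repressor of the cycle, fell by 1.48 and Rrm2, a subunit of ribonucleotide reductase, by 0.82. Cdt1, which licenses replication origins, went up, reading 156, 115 and 161 in the DMSO libraries and 399, 407 and 407 with blebbistatin, a change of 1.50 without overlap. Mki67, a proliferation marker, was at -0.23 and did not pass, but passed at -0.33 without DMSO replicate 3 and at -0.32 without blebbistatin replicate 3. Leaving out DMSO replicate 1 or blebbistatin replicate 1 lowered the count of falls in this list to 17 and that among mitotic genes to 5, and leaving out DMSO replicate 2 lowered the count of rises to 7 and that among replication genes to 3. Without blebbistatin replicate 3, 4 replication genes rose and 5 fell.

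Signalling by secreted factors changed in composition. In TGF-beta and BMP signalling, 20 of 41 genes fell and 12 rose. Of 15 ligands, antagonists and latency factors 8 fell and 5 rose, and both ligands and antagonists went in either direction. Among ligands, Gdf10 changed by 3.50, Tgfb2 by 1.16 and Tgfb1 by 0.73, while Gdf6, Bmp4 and Bmp6 changed by -2.23, -2.07 and -1.51 and the activin chain Inhba by -1.68. Among antagonists, Grem1 changed by 2.18, and Fst, Nog and Chrd by -1.56, -1.55 and -0.56. Of 8 response genes 5 rose and 3 fell, with Id1, Id2 and Id3 at 0.98, 0.62 and 0.71 while Id4 fell, reading 133 to 153 in the DMSO libraries and 60.6 to 85.5 with blebbistatin. The inhibitory Smads Smad6 and Smad7 were at -1.07 and -0.58. Bmp4 read 649, 608 and 650.2 in the DMSO libraries and 142, 155 and 153 with blebbistatin, and Id1 read 136, 128 and 146 in the DMSO libraries and 243, 318 and 253 with blebbistatin. The groups were apart in both, in opposite directions.

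In Wnt signalling 14 of 29 genes fell and 5 rose, with a median of -0.22. Of 16 ligands and receptors 10 fell and 1 rose, a rise lost with any library but blebbistatin replicate 1 left out. Lgr5, a receptor for R-spondins, read 518, 557 and 597 in the DMSO libraries and 86.2, 69.1 and 96.5 with blebbistatin, and its ligand Rspo3 read 2454, 2582 and 2536 in the DMSO libraries and 837, 973 and 742 with blebbistatin. They changed by -2.73 and -1.58. The secreted inhibitors Sfrp2 and Dkk2 fell by 1.34 and 0.84 while Dkk3 rose by 0.77, and the feedback gene Axin2 rose by 1.08.

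Growth factor ligands and their receptors went in opposite directions. Of 25 ligands 14 fell and 3 rose (median -0.40), and of 21 receptors and binding proteins 11 rose and 5 fell (median 0.18). Among ligands, Nrg1 fell by 1.65, Bdnf by 1.60, Pdgfd by 0.81, Fgf7 by 0.79 and Vegfa by 0.68. Among receptors, Egfr rose by 0.70, Pdgfra by 0.58 and Fgfr2 by 0.75. The 2 collagen receptors of the discoidin family diverged, with Ddr1 at -0.93 and Ddr2 at 0.70. Igfbp5, a binding protein of insulin-like growth factors, read 17526, 17228 and 15405 in the DMSO libraries and 35667, 40216 and 35132 with blebbistatin, a change of 1.15 without overlap.

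Genes induced by ERK signalling were mostly higher than in DMSO, 21 of 36 against 8 lower, with a median of 0.25. Feedback inhibitors, grouped with the ETS factors Etv4 and Etv5 and with Phlda1, were higher in 12 of 15 cases, among them Dusp4 at 1.37, Dusp6 at 0.89 and Spry4 at 0.85. Of 21 immediate early genes 9 rose and 6 fell. Egr1, a zinc finger factor that is also a tendon regulator, read 968, 665 and 825 in the DMSO libraries and 2331, 2671 and 3444 with blebbistatin, with a wide spread in both groups but no overlap, a change of 1.78. Klf4 went down, reading 7448, 7349 and 7424 in the DMSO libraries and 2941, 3187 and 3048 with blebbistatin, a change of -1.28, and Fosl2 fell by 0.93. In the feedback group 2 genes fell, Spry1 at -0.80 and Dusp1 at -0.66.

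Inflammatory genes were split, 11 of 37 higher and 12 lower, with a median of -0.07, yet the list went from 0.7908% ± 0.0066 to 0.5874% ± 0.022 of reads (SD, n = 3). The share followed abundant members. Csf1, the growth factor of macrophages, read 58800.1, 60638 and 60834 in the DMSO libraries and 26761, 28576 and 27239 with blebbistatin. Il6st, the shared receptor chain of the interleukin 6 family, read 49051, 48402 and 44453 in the DMSO libraries and 17274, 18319 and 17686 with blebbistatin. Both fell without overlap, by 1.13 and 1.41. Ptx3, a secreted pattern recognition protein, fell by 2.86 and the chemokines Ccl2 and Cxcl5 by 1.03 and 0.70. Cxcl12, a chemokine made by stromal cells, rose instead, reading 6433, 6412 and 6503 in the DMSO libraries and 14666, 14222 and 15196 with blebbistatin, a change of 1.19.

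The level of interferon response genes rested largely on 1 library. Of 35 tested genes 18 rose, and the median was 0.71. The summed level of the list was 52555 to 56037 in DMSO and 60017, 100717 and 57996 in blebbistatin replicates 1 to 3. Ifit1 read 412, 503 and 319 in the DMSO libraries and 446, 4805 and 316 with blebbistatin, so that only replicate 2 lay above the DMSO range. Usp18, a negative regulator of interferon signalling, read 111, 146 and 109 in the DMSO libraries and 302, 1282 and 249.9 with blebbistatin, so that all 3 replicates were above DMSO and replicate 2 most of all. Without replicate 2 the median was 0.24, with 19 genes higher and 5 lower, and without replicate 3, 28 genes were higher. Ifit1 was at 1.12 with all libraries, which limma did not call (adjusted p 0.219) and edgeR did (adjusted p 0.0381), and at -0.11 without replicate 2. Usp18 was at 1.92 and, without replicate 2, at 1.18 (limma adjusted p 8.47e-06). The 5 genes that were then lower were Stat2 at -0.41, Ifit2 at -0.28, Ifi35 at -0.19, Ifih1 at -0.17 and H2-K1 at -0.09.

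Antigen presentation genes depended less on that library. Of 8 tested 7 rose, and B2m, the light chain of class I molecules, read 9990.5, 9831 and 9665 in the DMSO libraries and 11618, 12568 and 11493 with blebbistatin, a change of 0.27 and of 0.23 without replicate 2. Of 28 promoters of the list 12 held GAAANNGAAA on either strand (42.9%) against 3.18% of all, and 6 of these genes rose while the others did not pass.

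**Figure D4:**
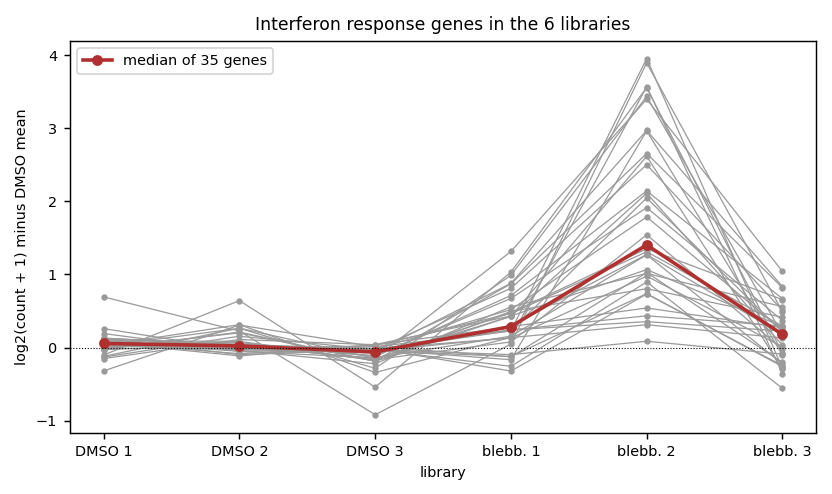
Each grey line is 1 of the 35 tested interferon response genes, as its log2(normalised count + 1) minus its mean in DMSO (y axis) in each of the 6 libraries (x axis), and the red line is the median. The median line has its peak at blebbistatin replicate 2, and replicates 1 and 3 lie much closer to the DMSO libraries.

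Y27632 lowers the same contractility by another route, so blebbistatin was also set directly against it. edgeR on the recovered reads of all 9 libraries called 26.9% of 14955 genes higher with blebbistatin than with Y27632 and 26.2% lower (4018 and 3917 genes, adjusted p under 0.05). Doses differ, 10 µM against 30 µM, and whether the treatments lasted equally long is not in the labels. The genes of cholesterol synthesis were lower with blebbistatin in 25 of 28 cases, with a median difference of -0.40, and Hmgcs1 differed by -0.61 (edgeR adjusted p 1.79e-08). Contractility genes were lower in 19 of 35 and higher in 6, with a median of -0.19. Myl9 differed by 0.14 and Fhl2 by -1.32, so that members of this list differed unequally. Yap and Taz targets were lower in 15 of 22 and higher in 4, and Amotl2 differed by -1.72.

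ERK-induced genes had a median difference of -0.98, with 28 of 36 lower with blebbistatin than with Y27632 and 4 higher. Egr1 differed by -0.71, Errfi1 by -2.45 and Nr4a1 by -2.60, although with blebbistatin against DMSO Egr1 and Errfi1 had risen, by 1.78 and 0.53. Inflammatory genes were lower in 25 of 37 and higher in 7, with the chemokines Ccl2 at -1.61 and Cxcl5 at -1.55. Nrf2 targets were higher with blebbistatin in 15 of 21, Hmox1 by 1.41. Lysosome and autophagy genes were higher in 36 of 61 and lower in 10, Gla by 1.08. Interferon response genes were higher with blebbistatin in 27 of 35, with a median difference of 1.03. Without blebbistatin replicate 2, 16 were higher and 1 lower, with a median of 0.30, and without Y27632 replicate 2, 17 were higher. Cytosolic ribosomal proteins, little changed against DMSO, were lower than with Y27632 in 58 of 81 cases, by a median of only 0.11 on the log2 scale.

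**Figure D5:**
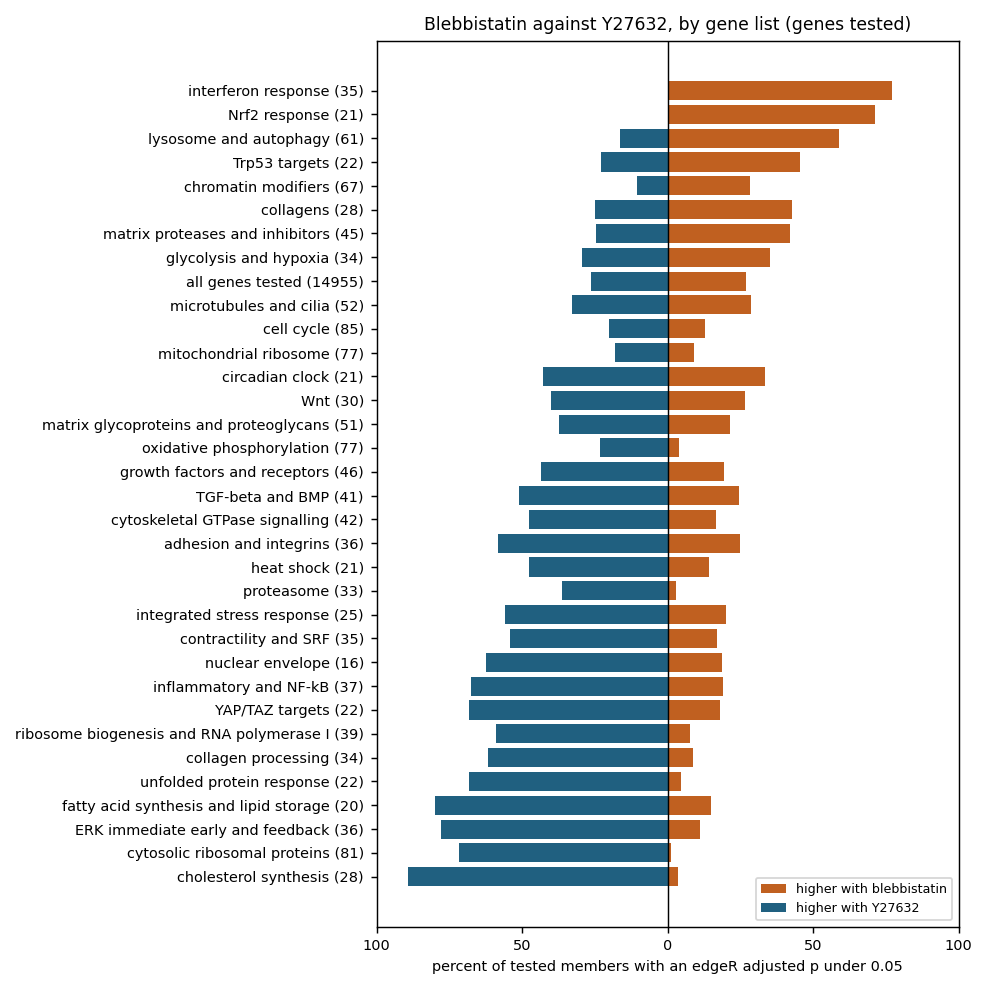
For each gene list, the percent of tested genes higher with blebbistatin (orange, to the right) and higher with Y27632 (blue, to the left) at an edgeR adjusted p under 0.05, with the number tested in brackets. Cholesterol synthesis and the ERK-induced genes lie mostly to the left, and interferon, Nrf2 and lysosome genes mostly to the right of the row for all genes. The interferon row includes blebbistatin replicate 2, without which 16 of 35 genes were higher.

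Among the largest single changes, many genes lay outside these programs. The 15 highest log2 changes among called genes with a mean of at least 100 and no overlap included, beside the proteases above, Nptx1, a neuronal pentraxin, at 3.46, Lrrc4, an adhesion molecule, at 3.41, the noradrenaline carrier Slc6a2 at 2.82, the muscle ubiquitin ligase Trim63 at 2.81 and the small GTP-binding protein Gem at 2.66. The deiodinases went apart. Dio2, which activates thyroid hormone, read 56.6, 61.8 and 79.3 in the DMSO libraries and 436, 388 and 433 with blebbistatin, and Dio3, which inactivates it, read 351, 420.3 and 394 in the DMSO libraries and 51.9, 40.3 and 49.6 with blebbistatin. The blebbistatin libraries lay above all DMSO libraries for Dio2, at 2.66, and below them all for Dio3, at -3.02.

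The 15 lowest included the natriuretic peptide receptor Npr3 at -2.60, the retinoic acid hydroxylase Cyp26b1 at -2.53, the G protein subunit Gna14 at -2.41, the adrenergic receptor Adra1d at -2.41 and the neuropeptide receptor Adcyap1r1 at -2.31. Srp54b was lowest at -3.75, reading 270.1, 239 and 79.3 in the DMSO libraries and 12.5, 9.87 and 13.8 with blebbistatin, and is uncertain because close copies of it exist. By mean count rather than by fold, the genes that gained most included Mmp14, the ferritin chains, Igfbp5, Angptl2, Aebp1, Spp1 and Psap, and those that lost most included Thbs1, Cemip, Col5a2, Lox, Scd2, Col1a1, Fbn1, Csf1 and Il6st. Cemip, which degrades hyaluronan, read 133358, 135371 and 123340 in the DMSO libraries and 34251, 35099.7 and 34850.2 with blebbistatin, and Angptl2, a secreted glycoprotein, read 12034, 11839.9 and 12364 in the DMSO libraries and 32276, 31433 and 31304 with blebbistatin. These changed by -1.91 and 1.39, with no overlap in either.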

How the data were processed

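RNA was measured in 9 poly(A) libraries, 3 per group, with 23375386 to 37061737 reads in genes. Per the submitters' processing notes, HISAT2, featureCounts and DESeq2 were among the tools used, with the mouse build mm10; use of strand, annotation and settings are not given in the sources used here. The deposited values are a signal per gene, counts that the authors divided by 1 size factor per library, which was worked out from the values: 100.0% of values were whole reads within 0.02. The authors' deposited table of ATAC sites gives log2 folds and p-value or FDR columns, per the file headers.

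Genes with a mean of at least 10 were tested with limma 3.58.1 (R 4.3.3, trend) on log2(value + 1), without a replicate block, since same-numbered libraries did not deviate together (correlations -0.06, 0.02 and 0.01). This scale understates the change of low genes. For blebbistatin against Y27632, whose tables were normalised separately, whole reads were recovered and fitted with edgeR 4.0.16 (quasi-likelihood test with TMM scaling). P-values were adjusted over all genes tested by the Benjamini-Hochberg method. Replicate pairs of the 2 groups differed beyond sampling noise, at 2.63 to 8.06 chi-square per degree of freedom. Alternatives were pseudocounts of 0.5 and 5, filters, TMM scaling, edgeR, DESeq2 1.42.0, the replicate block and each library left out. The tests were tried on simulated data.

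Genes named are the 15 highest and 15 lowest changes among called genes with a mean of at least 100 and no overlap, the 10 largest gains and losses in mean, and list members. Some genes meeting this rule are not reported here. Members and lists were chosen with earlier results of these data known, so list counts describe and are not independent support. Promoters are RefSeq sequences of GRCm38.p6, matched by symbol for 11492 of 14882 genes. Of the gene names in the table, 93.1% matched the RefSeq gene table and 25 had been turned into dates.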

Additional observations from a re-analysis of the deposited data

How the results depend on the processing

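The count of genes called was 7894 and ranged from 6838 (DESeq2) to 7924 (edgeR) under the alternatives that keep all libraries, and from 6988 to 7397 with 1 library left out. The number with a change of at least 1 was 978, but 1471 without a filter on low values and 612 with a mean of at least 50, settings that test more and fewer scarce genes. It ranged from 966 to 1003 with 1 library left out. With the replicate block 7604 genes were called, 7488 of them shared with the test without it, none of these with another sign. The numbers did not pair the libraries, and of the genes named only Rock1 and Tfe3 lost their call with the block, both at a log2 change of -0.10. TMM scaling shifted the median of all genes by 0.0023. Against Y27632, 7935 genes were called, 7700 with the replicate block, 7068 with DESeq2 and 7155 to 7976 with 1 library left out. Of 243 named genes that were called, 6 (Rock1, Tfe3, Keap1, Taldo1, Insig2 and Tnmd) lost the call under at least 1 alternative, all with absolute changes under 0.25, and none of the 243 changed sign. Genes that had not been called and changed sign were Scx, at 0.03 with edgeR and with DESeq2 and -0.20 to 0.10 with 1 library left out, and Gapdh, at -0.58 to 0.64 with 1 library left out. With 1 library left out, the interferon genes ranged from -0.41 to 0.32 for Stat2, -0.28 to 0.24 for Ifit2, -0.19 to 0.31 for Ifi35, -0.17 to 0.45 for Ifih1 and -0.11 to 1.85 for Ifit1, with each lowest value that without blebbistatin replicate 2. Depth limits the scarce genes most, with a median standard error of 0.283 below a mean of 50.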

Other observations

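Programs not described above are given here, again to be read against 26.1% higher and 26.9% lower for all genes. Of 21 circadian clock genes 10 rose and 7 fell. The transcription factor Hlf read 89.4, 68.4 and 71.2 in the DMSO libraries and 191, 154 and 216 with blebbistatin, and its relative Dbp read 359, 345 and 329.7 in the DMSO libraries and 478, 599 and 498 with blebbistatin. They rose by 1.28 and 0.60 without overlap, while the activator Arntl fell by 0.49, the repressor Cry1 by 0.75 and Ciart by 1.11. Tubulins and microtubule regulators fell in 10 of 20 cases and rose in 5, with Tuba1a, which read 12140.1, 12982 and 13364 in the DMSO libraries and 7161, 7072 and 7298 with blebbistatin, at -0.84. Genes of ciliary transport and hedgehog signalling rose in 15 of 32 cases and fell in 6. Of the 52 genes of both groups together, 20 were called higher and 16 lower. Without blebbistatin replicate 2, 14 were called higher and 16 lower. The hedgehog receptor and target Ptch1 changed by -0.83 and the Bardet-Biedl gene Bbs9 by 0.77.

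At the nuclear envelope 10 of 16 genes fell and 3 rose. Lbr, the lamin B receptor, read 1746, 1676 and 1828 in the DMSO libraries and 907, 843 and 892 with blebbistatin, a change of -0.99 with no overlap. The B-type lamins Lmnb1 and Lmnb2 fell by 0.35 and 0.37, while Lmna, which scales with tissue stiffness, rose by 0.27 and the linker Sun2 by 0.44. Of 67 chromatin modifiers 19 rose and 18 fell, with a median of -0.01. These shares, 28.4% and 26.9%, were close to the 26.1% and 26.9% of all genes. Jarid2, a Polycomb partner, rose by 0.70, and the methyltransferases Ezh1 and Ezh2 by 0.50 and 0.43. Hdac11 rose by 0.56. Without DMSO replicate 1, 11 of the modifiers were called lower, and without DMSO replicate 2, 10. Markers of other lineages went in either direction, from different levels. Sox5, a cartilage factor, read 51.6, 48.5 and 51.7 in the DMSO libraries and 200.5, 199.8 and 207 with blebbistatin, S100b, a glial marker, read 101, 82.7 and 78.1 in the DMSO libraries and 218, 220.3 and 199 with blebbistatin, and Tek, an endothelial receptor kinase, read 3112, 3135 and 3084 in the DMSO libraries and 1899.8, 2008 and 2133 with blebbistatin. Sox5 and S100b rose by 1.98 and 1.28 and Tek fell by 0.63.

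The ETS motif CCGGAAG, chosen after the data were seen and searched on both strands, was in 14.6% of all promoters in the table. It was in 3.66% of promoters of genes that rose by at least 1 (14 of 383) and in 5.15% of those that fell by at least 1 (17 of 330). Gapdh, which shares sequence with many processed copies, read 48.7, 136 and 49.4 in the DMSO libraries and 46.7, 215 and 45 with blebbistatin, so that replicate 2 was the highest library in both groups. Its low level and this pattern are given as values, and their source was not tested.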
